A study of Homo sapiens with 6 samples.

Results

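The genes of oxidative phosphorylation were followed in HaCaT cells, an immortalized human keratinocyte line, after siRNA against PSENEN, the gene for a subunit of γ-secretase. They were chosen by name: symbols starting MT-ND, MT-CO, MT-ATP or MT-CYB for the mitochondrial genome, and the NDUFA, NDUFB, NDUFC, NDUFS, NDUFV, SDHA to SDHD, UQCR, COX4 to COX8 and ATP5 families for the nucleus. Pseudogenes and antisense genes were left out, as was ATP5J2LP, which is annotated as a processed pseudogene. The rule found 106 genes, 93 nuclear and 13 mitochondrial, of 27988 genes named in the files. The prefixes also took in 14 genes that are assembly factors or related proteins rather than subunits, such as the NDUFAF and SDHAF genes, ATP5SL and COX7A2L, and these are given apart.

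The study held 6 RNA-seq libraries: 3 from HaCaT cells transfected with 100 pmol of PSENEN siRNA and 3 from HaCaT cells transfected with a mismatch siRNA as the negative control. Both groups were grown in high-glucose medium with 10% fetal calf serum and transfected with a Lipofectamine reagent; the dose of the mismatch siRNA is not in the labels. The labels give RNA extraction at 48 h and 72 h and do not say which of the time points was sequenced. Nothing in them says whether the 3 libraries of a group came from separate cultures, so p-values measure only the spread between these libraries, which may be technical.

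Oxidative phosphorylation is carried out by 5 complexes of the inner mitochondrial membrane. Complexes I, III and IV pass electrons to oxygen and pump protons, complex II feeds electrons in from succinate, and complex V, the ATP synthase, uses the proton gradient to make ATP. Complex II is built from nuclear genes alone, while the other complexes combine nuclear subunits, imported from the cytosol, with subunits transcribed and translated inside the organelle. Transcripts of the mitochondrial genome are cut out of long precursors and are very abundant. The nuclear and the mitochondrial genes of one complex are controlled by separate machinery.

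Values are TPM, an abundance scaled for transcript length and library depth, summed per gene. Estimated depth ran from 9.16 to 11.9 gigabases of aligned sequence in the PSENEN siRNA libraries and from 11.5 to 15.6 in the mismatch siRNA libraries, with PSENEN siRNA library 3 the shallowest. PSENEN itself was at 1.75, 2.08 and 1.496 TPM with its siRNA and at 6.58, 12.6 and 7.47 TPM with the mismatch siRNA. The groups did not overlap, and PSENEN fell by 1.79 on the log2(TPM + 1) scale (SE 0.25, limma adjusted p = 0.0472). The call held in 5 of 11 other settings (adjusted p 0.0204 to 0.0891) and in 0 of 6 fits without 1 library (0.0889 to 0.157). The 11 settings do not include a fit with the replicate number as a term. All 13 keratinocyte markers were expressed, with a summed level of 5008 to 5346 TPM with PSENEN siRNA against 7329 to 10492 TPM with mismatch siRNA. Markers of melanocytes, fibroblasts, endothelial cells, leukocytes, erythroid cells and striated muscle each summed to at most 5.3 TPM in any library. The summed keratinocyte marker level therefore moved with the groups, though no single marker was called. KRT14 and KRT5 were the most abundant of the 13, at means of 1473 and 1177 TPM with PSENEN siRNA against 3563 and 2099 TPM. The groups overlapped for DSP, COL17A1, ITGA6 and LAMB3, and LAMB3 had a higher mean with PSENEN siRNA (123 against 117 TPM). The part of the marker level in the values of the respiratory genes was not tested.

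A gene was called changed where the limma test gave an adjusted p under 0.05 over all 16428 genes tested. By this rule 84 genes, or 0.511% of those tested, were called, with 27 (0.164%) higher and 57 (0.347%) lower with PSENEN siRNA. Of the oxidative phosphorylation genes, 91 nuclear and all 13 mitochondrial ones were tested, having 1 TPM or more in 3 or more libraries. COX6B2 and NDUFA4L2 were too low. Among the 91 nuclear genes 1 was called higher, ATP5O, and 1 was called lower, ATP5SL. None of the 13 mitochondrial genes was called by limma, while 4 had an unadjusted p under 0.05, against 14.6% of all genes tested. When any 1 of the 6 libraries was left out, neither gene was called, and 9 to 12 of all genes tested were.

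Sequences are shown first for the 2 called genes, which carry the gene-level result, and for 4 genes whose promoters hold a motif of factors known to act on respiratory genes. They are the 250 bases before the RefSeq transcription start (GRCh38.p14), 5′ to 3′ on the gene's strand. Capitals mark matches, on either strand, to the letters searched: GCGCATGCG, the core of the NRF1 site, CCGGAAGT, bound by ETS factors such as GABPA, and AAGATGGCG, the core of the YY1 site. The ends of these motifs can overlap, and a palindromic stretch can match NRF1 on both strands.
ATP5O (ATP5PO), chr21:33915805-33916054, minus strand: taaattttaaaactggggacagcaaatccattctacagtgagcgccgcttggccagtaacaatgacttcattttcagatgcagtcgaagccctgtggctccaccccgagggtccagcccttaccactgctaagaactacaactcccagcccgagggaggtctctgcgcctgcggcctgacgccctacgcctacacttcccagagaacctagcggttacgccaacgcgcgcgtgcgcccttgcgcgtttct
ATP5SL (DMAC2), chr19:41439538-41439787, minus strand: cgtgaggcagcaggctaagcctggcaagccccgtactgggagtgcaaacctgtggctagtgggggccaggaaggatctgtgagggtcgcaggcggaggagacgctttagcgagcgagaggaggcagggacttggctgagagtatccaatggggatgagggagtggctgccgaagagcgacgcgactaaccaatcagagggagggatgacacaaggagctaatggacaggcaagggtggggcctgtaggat
SDHD, chr11:112086623-112086872, plus strand: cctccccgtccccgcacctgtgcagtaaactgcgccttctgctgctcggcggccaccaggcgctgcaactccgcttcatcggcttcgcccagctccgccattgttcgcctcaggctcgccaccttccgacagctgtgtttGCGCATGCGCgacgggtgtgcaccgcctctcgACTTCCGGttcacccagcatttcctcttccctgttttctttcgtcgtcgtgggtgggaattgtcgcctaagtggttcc
ATP5J (ATP5PF), chr21:25735055-25735304, minus strand: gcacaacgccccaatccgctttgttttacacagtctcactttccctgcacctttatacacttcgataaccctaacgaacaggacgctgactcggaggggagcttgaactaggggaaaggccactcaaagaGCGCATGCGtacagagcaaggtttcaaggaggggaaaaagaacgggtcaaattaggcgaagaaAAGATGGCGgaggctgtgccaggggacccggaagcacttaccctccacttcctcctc
COX6A1, chr12:120437863-120438112, plus strand: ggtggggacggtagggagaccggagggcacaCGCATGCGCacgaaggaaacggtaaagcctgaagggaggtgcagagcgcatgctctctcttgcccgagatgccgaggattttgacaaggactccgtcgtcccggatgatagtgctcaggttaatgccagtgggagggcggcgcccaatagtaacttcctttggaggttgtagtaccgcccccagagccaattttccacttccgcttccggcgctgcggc
NDUFA13, chr19:19515975-19516224, plus strand: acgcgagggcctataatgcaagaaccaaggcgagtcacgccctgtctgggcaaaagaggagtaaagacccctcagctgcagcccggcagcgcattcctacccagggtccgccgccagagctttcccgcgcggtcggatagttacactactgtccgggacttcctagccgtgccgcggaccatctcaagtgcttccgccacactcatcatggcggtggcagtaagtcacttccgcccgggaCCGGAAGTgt

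The promoters of ATP5O and ATP5SL hold none of the 3 motifs in this window, which says nothing about binding. SDHD, for a membrane anchor of complex II, holds the NRF1 letters on both strands and the ETS letters, and ATP5J holds the NRF1 and the YY1 letters. Promoters from 250 bases before to 50 after the start were matched for 75 of the 93 nuclear genes. Of these, 11 (14.7%) held the NRF1 letters, against 2.1% of 27305 RefSeq promoters of the same length. The ETS letters were in 10 (13.3%, against 4.44%) and the YY1 letters in 8 (10.7%, against 1.85%). At least 1 of the 3 motifs was in 26 of the 75 promoters (34.7%, against 7.86%). Of the 4 genes printed with a match, SDHD and NDUFA13 had a higher mean TPM with PSENEN siRNA and ATP5J and COX6A1 a lower one. RNA of NRF1 itself overlapped between the groups, at 7.83 to 11.6 TPM with PSENEN siRNA and 7.60 to 9.81 TPM with mismatch siRNA. GABPA also overlapped, at 5.86 to 8.30 TPM against 6.46 to 7.64 TPM. YY1 was at 27.9, 33.6 and 27.9 TPM against 45.6, 46.4 and 33.2 TPM, with a narrow overlap. Its log2 difference of -0.46 was not called (limma adjusted p = 0.268).

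The nuclear genes as a whole sat close to the median of all genes. Their median log2 difference, PSENEN siRNA minus mismatch siRNA, was -0.038, beside -0.05 over all genes tested. The sign of this median depended on the scaling and on the libraries used. It was 0.016 with median-of-ratios scaling, 0.017 with quantile normalization and 0.035 with FPKM. On the deposited scale it was 0.024 without PSENEN siRNA library 2. On the deposited scale 35 of the 91 genes were on the higher side (38.5%, against 43.4% of all genes) and 56 on the lower side. Of the 91, 66 lay within 0.25 of 0 (72.5%, against 55.7% of all genes). The middle 50% of the nuclear genes ran from -0.18 to 0.10, a narrower band than the -0.27 to 0.16 of all genes. For 17 of the 91 genes (18.7%) the groups were free of overlap, against 22.3% of all genes tested, a share near the background.

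**Figure D1:**
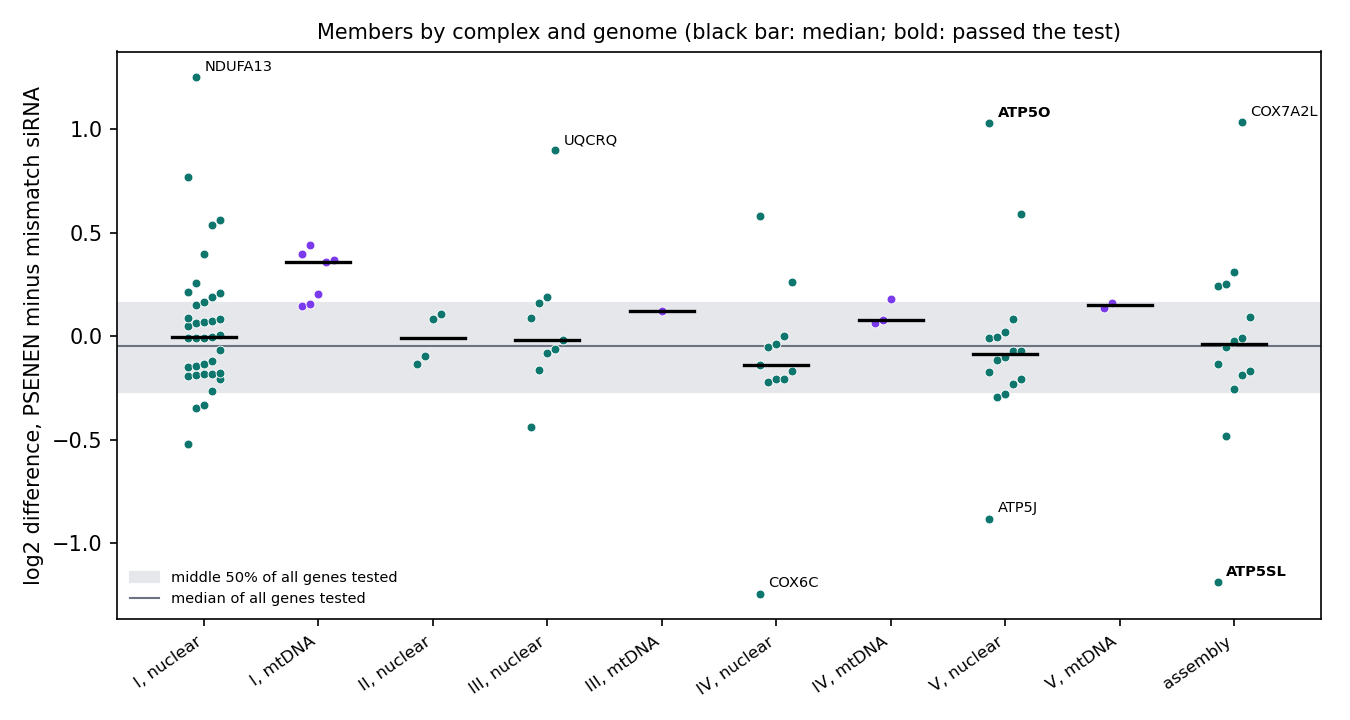
Log2 difference on the log2(TPM + 1) scale (vertical axis, PSENEN siRNA minus mismatch siRNA) for each gene tested, by complex (I to V) and by genome, with assembly factors last. Green points are nuclear and purple points mitochondrial genes, black bars are medians, and the grey band and line give the middle 50% and the median of all genes tested: nuclear medians lie inside the band, and the 7 mitochondrial complex I genes have a median of 0.36.

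Summed over the 93 nuclear genes, the level was 6744, 6472 and 6286 TPM with PSENEN siRNA and 6540, 6781 and 6666 TPM with mismatch siRNA, so the groups overlapped. The 13 mitochondrial genes summed to 32660, 31284 and 25294 TPM with PSENEN siRNA and to 26406, 27100 and 25423 TPM with mismatch siRNA. PSENEN siRNA libraries 1 and 2 were above every control library and library 3 was below them all. The mitochondrial sum was 4.84, 4.83 and 4.02 times the nuclear sum with PSENEN siRNA and 4.04, 3.997 and 3.81 times with mismatch siRNA. The log2 of this ratio was on average 0.20 higher with PSENEN siRNA, against a spread within groups of 0.11 (SD), and library 3 fell inside the control range. Without that library the difference was 0.29, the highest value with 1 library left out. In bulk samples a change in the number of mitochondrial genomes, in RNA per genome and in the makeup of the cells cannot be told apart.

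**Figure D2:**
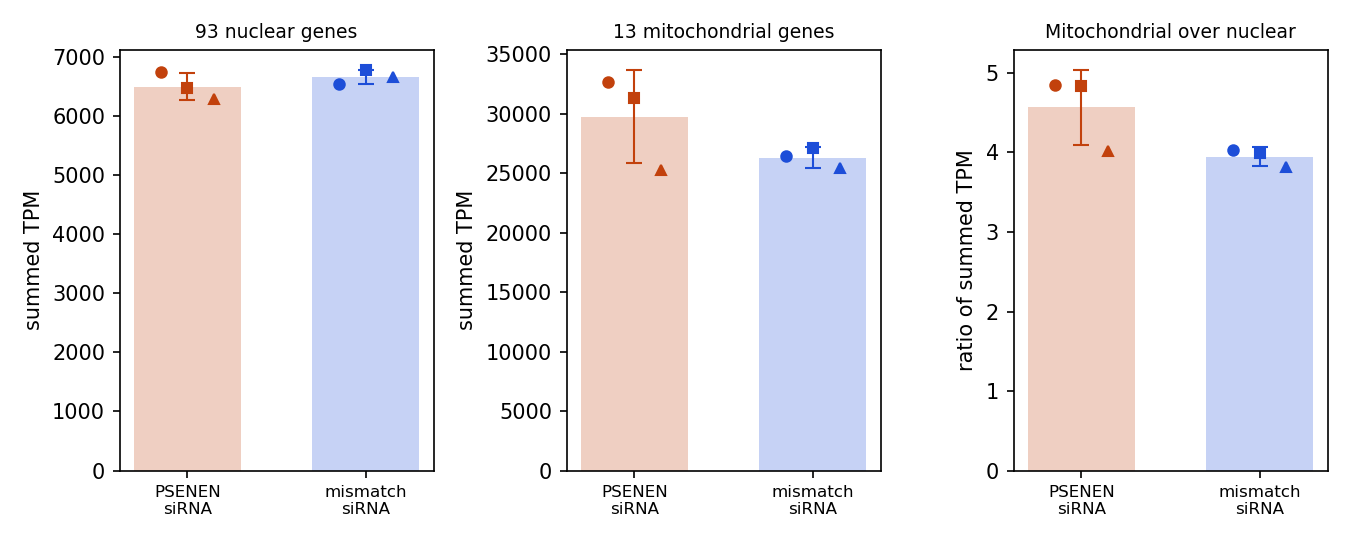
Summed TPM of the 93 nuclear genes, summed TPM of the 13 mitochondrial genes and the ratio of the sums, for each library (points; circle, square and triangle are libraries 1, 2 and 3), with bars for the mean of 3 and error bars for the SD. The nuclear sums overlap, and PSENEN siRNA library 3, with a ratio of 4.02, sits among the controls while libraries 1 and 2 are above them.

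Mitochondrial transcripts were far more abundant than nuclear ones: the 13 genes had mean levels from 875 TPM (MT-ATP8) to 6789 TPM (MT-CO1) with a median of 1608 TPM, and the 77 nuclear subunits tested had a median of 66.5 TPM. All 13 had a higher mean log2 level with PSENEN siRNA, with differences from 0.064 to 0.44, and none passed the test. The direction was the same under 11 other scalings, filters and measures, except that MT-CO1 and MT-CO2 had no difference (0.0000) with quantile normalization, and MT-CO2 turned negative when PSENEN siRNA library 1 or 2 was left out. Their median difference was 0.16. It was 0.060 without PSENEN siRNA library 1, 0.11 without library 2 and 0.32 without library 3. The genes share long precursor RNAs, MT-ND6 from the opposite strand to the rest, and one library denominator, so the 13 directions are not independent.

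The 7 mitochondrial subunits of complex I, the entry point for electrons from NADH, had a median log2 difference of 0.36, and MT-ND1, MT-ND2, MT-ND3, MT-ND5 and MT-ND6 had the highest values of the 13 genes. MT-ND2, at chrMT:4470-5511, was at 2033, 1928 and 1495 TPM with PSENEN siRNA and at 1470, 1346 and 1186 TPM with mismatch siRNA. The groups were separate, narrowly so for PSENEN siRNA library 3, and the log2 difference was 0.44 (SE 0.15, limma adjusted p = 0.26). MT-ND3 was at 1043, 1018 and 938 TPM against 873, 754 and 664 TPM, also without overlap, a difference of 0.40 (SE 0.12, limma adjusted p = 0.23). MT-ND6 was at 1845, 1784 and 1668 TPM against 1516, 1380 and 1251 TPM, a difference of 0.36. It lies on the opposite strand to the other members, and the labels do not say whether strand was kept, so its reads cannot be told apart from antisense RNA of the same stretch.

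MT-ND5 was at 1990, 1948 and 1747 TPM with PSENEN siRNA against 1746, 1664 and 1534 TPM, a log2 difference of 0.20 with groups that touched but did not overlap. MT-ND1, at chrMT:3307-4262, was at 2064, 1925 and 1572 TPM against 1640, 1442 and 1227 TPM, with PSENEN siRNA library 3 below the highest control. Its log2 difference was 0.37. MT-ND4 and MT-ND4L, which are cut out as 1 messenger RNA and overlap in sequence, differed by 0.14 and 0.16, with PSENEN siRNA library 3 the lowest of the 6 libraries for both. Among the 13 genes 4 (30.8%) had groups that did not overlap, against 22.3% of all genes tested, and these 4 encode complex I subunits.

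The mitochondrial subunits of the other complexes differed by 0.064 to 0.18, a range that also holds MT-ND4 and MT-ND4L. MT-CO1, the catalytic subunit of cytochrome c oxidase, was at 7297, 7095 and 6436 TPM with PSENEN siRNA and at 6331, 6834 and 6737 TPM with mismatch siRNA, a log2 difference of 0.064. MT-CO2 was at 5235, 4961 and 3352 TPM against 4025, 4471 and 4131 TPM, where library 3 was the lowest and libraries 1 and 2 the highest of the 6. The log2 differences of MT-CO2, MT-CO3, MT-CYB, MT-ATP8 and MT-ATP6 were 0.076, 0.18, 0.12, 0.14 and 0.16, each with overlapping groups. MT-CYB encodes the cytochrome b of complex III, and MT-ATP6 a channel subunit of the ATP synthase.

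The balance within the mitochondrial genome can be given without reference to nuclear genes. Complex I genes made up 38.3%, 38.1% and 39.2% of the mitochondrial sum with PSENEN siRNA and 37.9%, 34.9% and 33.7% with mismatch siRNA. Complex IV genes made up 43.7%, 43.7% and 44.1% against 44.2%, 47.0% and 48.3%. The groups did not overlap for either share, but mismatch siRNA library 1 lay next to the PSENEN siRNA libraries in both. The shares were computed after the values were seen and were not tested.

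**Figure D3:**
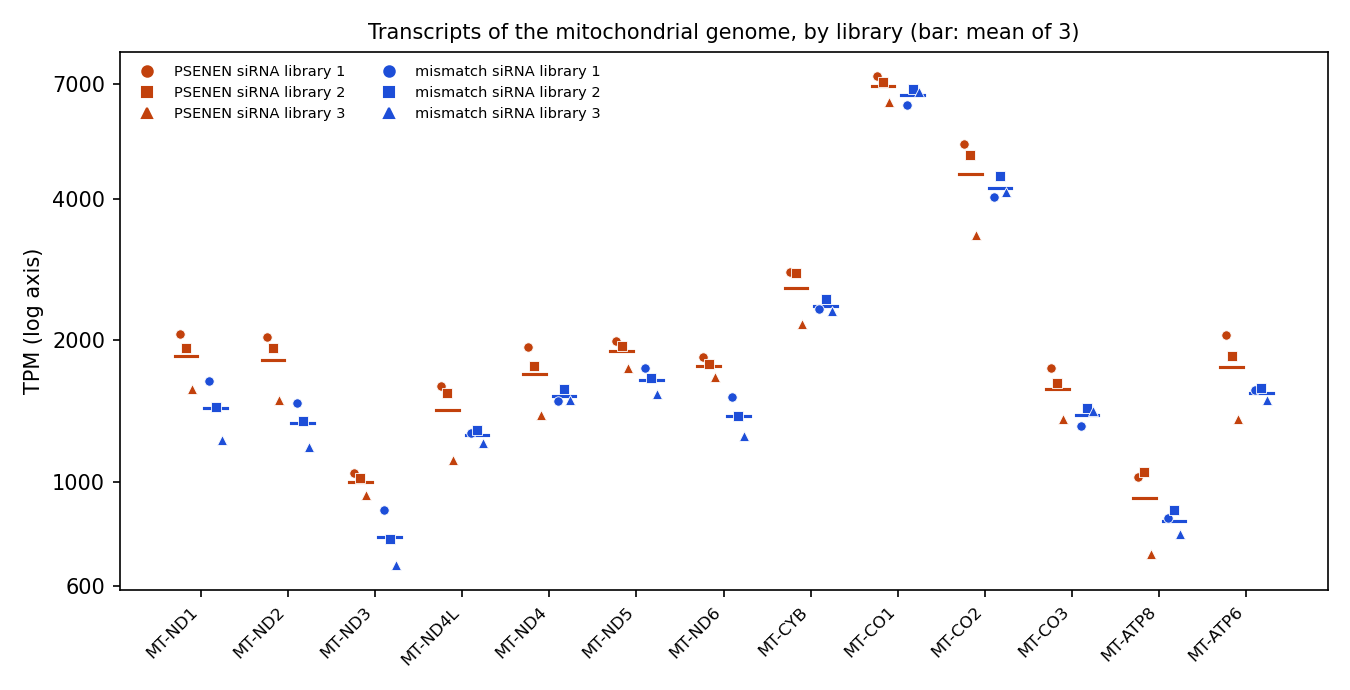
TPM (logarithmic vertical axis) of the 13 protein-coding genes of the mitochondrial genome in each library, orange for PSENEN siRNA and blue for mismatch siRNA, with bars for the mean of 3. MT-ND2, MT-ND3, MT-ND5 and MT-ND6 have no overlap between the groups, and PSENEN siRNA library 3 (triangles) is the lowest of its group for every gene.

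Copies of mitochondrial genes lie in the nuclear genome, and 9 of the 13 genes shared more than 20% of their 31-base words with another annotated gene. The share was 66.7% for MT-CO1, 63.7% for MT-ATP6 and 56.9% for MT-ND2, and 3.48% for MT-ND3. The 125 annotated nuclear copies in the files summed to 2138, 2075 and 1724 TPM with PSENEN siRNA and to 1484, 1736 and 1588 TPM with mismatch siRNA. MTND2P28, the copy of MT-ND2, was at 531, 518 and 416 TPM against 391, 354 and 306 TPM, the same order of libraries as MT-ND2 itself. How reads were divided between a gene and its copy was not tested. The 2 mitochondrial ribosomal RNA genes were listed at no more than 0.0232 TPM in any library.

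Complex I had 37 nuclear subunits, all tested and none called, with a median log2 difference of -0.0054. Their mean levels ran from 5.88 TPM (NDUFA7) to 127 TPM (NDUFB9). By TPM the groups were separate for 12 of the 37 (32.4%), 4 higher and 8 lower with PSENEN siRNA, against 22.3% of all genes. NDUFS3, a core subunit of the matrix arm (chr11:47565336-47584562), was at 88.6, 86.7 and 107 TPM with PSENEN siRNA and at 65.0, 64.4 and 60.0 TPM with mismatch siRNA. Its log2 difference of 0.56 (SE 0.11) missed the threshold (limma adjusted p = 0.103, 0.078 to 0.256 over other settings and left-out libraries). NDUFS4, a supernumerary subunit of the same arm (chr5:53560633-53683340), was at 42.6, 41.8 and 42.8 TPM against 63.6, 63.7 and 56.4 TPM. Its log2 difference was -0.52 (SE 0.10, limma adjusted p = 0.0859, 0.0553 to 0.256 over other settings and left-out libraries). For both genes the groups were well apart and in opposite directions, in each case carried by the most abundant transcript (ENST00000263774 and ENST00000296684). NDUFS3 and the genes of the 2 paragraphs on complex I that are not extremes were named after their values were seen.

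NDUFA13, a subunit also known as the cell-death regulator GRIM-19, had the largest positive difference of the nuclear complex I genes. It was at 109, 113 and 111 TPM with PSENEN siRNA and at 74.5, 42.8 and 30.5 TPM with mismatch siRNA, a log2 difference of 1.25 (SE 0.30, limma adjusted p = 0.143). The PSENEN siRNA libraries were close together and the controls were widely spread. A second measure, coverage of every assembled exon that falls on the gene's annotated exons whichever transcript it was given to, was added after the data were examined. By it NDUFA13 was at 45.2, 44.0 and 40.0 against 32.8, 30.9 and 36.6 in TPM units, still without overlap, with a log2 difference of 0.36. By the same measure 10 of the 37 nuclear complex I subunits had separate groups, 3 higher and 7 lower with PSENEN siRNA. That share was 27.0%, near the 24.9% of all genes by this measure.

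Other complex I genes with groups that did not overlap had small differences. NDUFV1, the subunit that binds NADH, was at 112, 99.6 and 104 TPM with PSENEN siRNA against 93.7, 87.8 and 81.7 TPM, a log2 difference of 0.26. Differences on the lower side were -0.26 for NDUFA12 and -0.21 for NDUFV2, with NDUFC2, NDUFA1, NDUFB7, NDUFB11 and NDUFB4 between -0.19 and -0.12. NDUFA6 differed by 0.07. NDUFB9, the most abundant, was at 161, 142 and 62.9 TPM against 88.5, 149 and 160 TPM, with 1 low library in each group.

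Complex II, the complex without a mitochondrially encoded subunit, had no gene called. SDHD, the most abundant, was at 138, 131 and 141 TPM with PSENEN siRNA and at 106, 156 and 124 TPM with mismatch siRNA. The log2 differences of the 4 subunits ran from -0.13 (SDHC) to 0.11 (SDHD), and all 4 had overlapping groups by TPM. By exon coverage SDHC was lower without overlap, at 8.96, 9.43 and 8.49 against 11.02, 11.45 and 11.1 in TPM units. SDHA, the flavoprotein that oxidizes succinate, was at 79.0 to 82.9 TPM with PSENEN siRNA and 76.5 to 104 TPM with mismatch siRNA.

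In complex III none of the 9 nuclear subunits was called and the median log2 difference was -0.017. UQCRH, the hinge protein and the most abundant, was at 198, 201 and 201 TPM with PSENEN siRNA and at 204, 205 and 198 TPM with mismatch siRNA, a difference of -0.017 (SE 0.08). UQCRQ, a small subunit, was at 63.2, 54.1 and 63.6 TPM against 50.6, 30.8 and 20.5 TPM, a log2 difference of 0.90 (SE 0.30, limma adjusted p = 0.254). Its groups did not overlap, and by exon coverage the difference was 0.38. UQCRB had the most negative value, -0.44, and -0.0105 by exon coverage, with overlapping groups.

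Nuclear subunits of complex IV had a median of -0.14 over the 11 tested, with 9 of 11 on the lower side and none called. On the higher side were 18.2%, against 43.4% of all genes. With median-of-ratios scaling 6 of 11 were on the lower side and the median was -0.084, and without mismatch siRNA library 3 it was -0.0020. COX6A1, the most abundant, was the only one of the 11 with groups that did not overlap by TPM (9.09%, against 22.3% of all genes), and by exon coverage 3 of the 11 had none (27.3%, against 24.9% of all genes). COX6A1 was at 325, 328 and 331 TPM with PSENEN siRNA and at 370, 386 and 380 TPM with mismatch siRNA, a difference of -0.21 (SE 0.08, limma adjusted p = 0.298). COX4I1 was at 260, 279 and 205 TPM against 298, 252 and 314 TPM, with overlap.

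Single libraries decided the extreme values of complex IV. COX6C was at 116, 129 and 8.14 TPM with PSENEN siRNA and at 128, 123 and 114 TPM with mismatch siRNA. Only PSENEN siRNA library 3 was low, and by exon coverage it was also low there, at 1.51 against 39.0 to 42.9 in the other libraries. The log2 difference was -1.24 with that library and 0.0072 without it. COX5A was at 80.4, 22.2 and 75.8 TPM against 18.8, 75.1 and 27.7 TPM, with high and low libraries in both groups, and its exon coverage ran from 24.4 to 72.3.

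Many members have tissue forms encoded by separate genes, and for COX6B and NDUFA4 the widely expressed form was the abundant one. COX6B1 was at 101 to 145 TPM and COX6B2, known from testis, at 0.125 to 0.8 TPM over the 6 libraries. NDUFA4, a subunit of complex IV despite its name, was at 40.3 to 86.9 TPM and NDUFA4L2, known as a hypoxia-induced form, at 0 to 0.547 TPM. The other heart and muscle, lung or testis forms of COX4, COX6A, COX7A, COX7B and COX8 were looked for by name. No such name was found among the genes listed, so no level is given for them. COX7A2, COX7B and COX8A had log2 differences of -0.002, -0.052 and -0.038, whose signs turned with the scaling. ATP5G1, ATP5G2 and ATP5G3, which encode an identical mature ring subunit of the ATP synthase, were at 46.5 to 103, 63.5 to 116 and 76.3 to 143 TPM. Their log2 differences were 0.02, -0.011 and -0.07, each with overlapping groups.

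Complex V held the only nuclear subunit gene of the 77 tested that was called. ATP5O (ATP5PO, ENSG00000241837, chr21:33903453-33915980), whose product OSCP joins the catalytic head of the ATP synthase to its peripheral stalk, rose. It was at 68.8, 64.0 and 69.0 TPM with PSENEN siRNA and at 37.3, 32.4 and 28.4 TPM with mismatch siRNA. All PSENEN siRNA libraries were above all controls, by 2.04-fold on the log2(TPM + 1) scale: the log2 difference was 1.03 (SE 0.12, limma adjusted p = 0.0381, 0.0225 to 0.0583 over 11 other settings). The call was lost without the intensity trend. It was also lost with the replicate number as a term, a fit outside those 11 settings, where 0 members were called. Each of the 6 fits that left out a library lost it too (adjusted p 0.0752 to 0.148), with differences of 0.93 to 1.12. The exact two-sided permutation p over the 6 libraries was 0.1, the smallest that 3 against 3 allows.

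The rise of ATP5O was in its main coding transcript, ENST00000290299, at 68.3, 63.3 and 66.7 TPM with PSENEN siRNA against 37.0, 31.8 and 28.2 TPM. Exon coverage gave 19.1, 18.2 and 19.3 against 10.5, 8.97 and 7.85 in TPM units, a log2 difference of 0.98 (limma adjusted p = 0.0225 among 16318 genes, of which 1.5% were called by this measure). ATP5O shared 23.8% of its 31-base words with other annotated genes, 17.4% with AP000311.1, so part of its level is uncertain.

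The other genes of the peripheral stalk did not move with ATP5O. ATP5F1 was at 93.8, 74.8 and 110 TPM with PSENEN siRNA and at 86.6, 114 and 96.7 TPM with mismatch siRNA, and ATP5H at 157, 126 and 185 TPM against 147, 156 and 186 TPM, both with overlap. ATP5J was at 60.9, 47.5 and 16.6 TPM against 69.0, 64.1 and 71.4 TPM. Its groups did not overlap, on the lower side, with PSENEN siRNA library 3 far below the rest, and the log2 difference was -0.88 (SE 0.44, limma adjusted p = 0.42). Without that library the difference was -0.34, and by exon coverage with all libraries it was -0.43. The summed level of the 4 stalk genes was 380, 313 and 380 TPM against 340, 367 and 383 TPM, so it overlapped between the groups. By exon coverage it was 132, 128 and 131 against 127, 122.5 and 128 in TPM units, where the groups touched without overlap.

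Genes of the catalytic head overlapped as well. ATP5B, the most abundant nuclear member, was at 557, 449 and 378 TPM with PSENEN siRNA and at 507, 636 and 543 TPM with mismatch siRNA, a log2 difference of -0.30 (SE 0.16). ATP5A1 was at 203, 196 and 168 TPM against 175, 183 and 177 TPM. The median over the 16 nuclear subunits of complex V was -0.088, with 12 on the lower side on the deposited scale and 10 with median-of-ratios scaling. On the deposited scale 25% were on the higher side, against 43.4% of all genes.

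**Figure D4:**
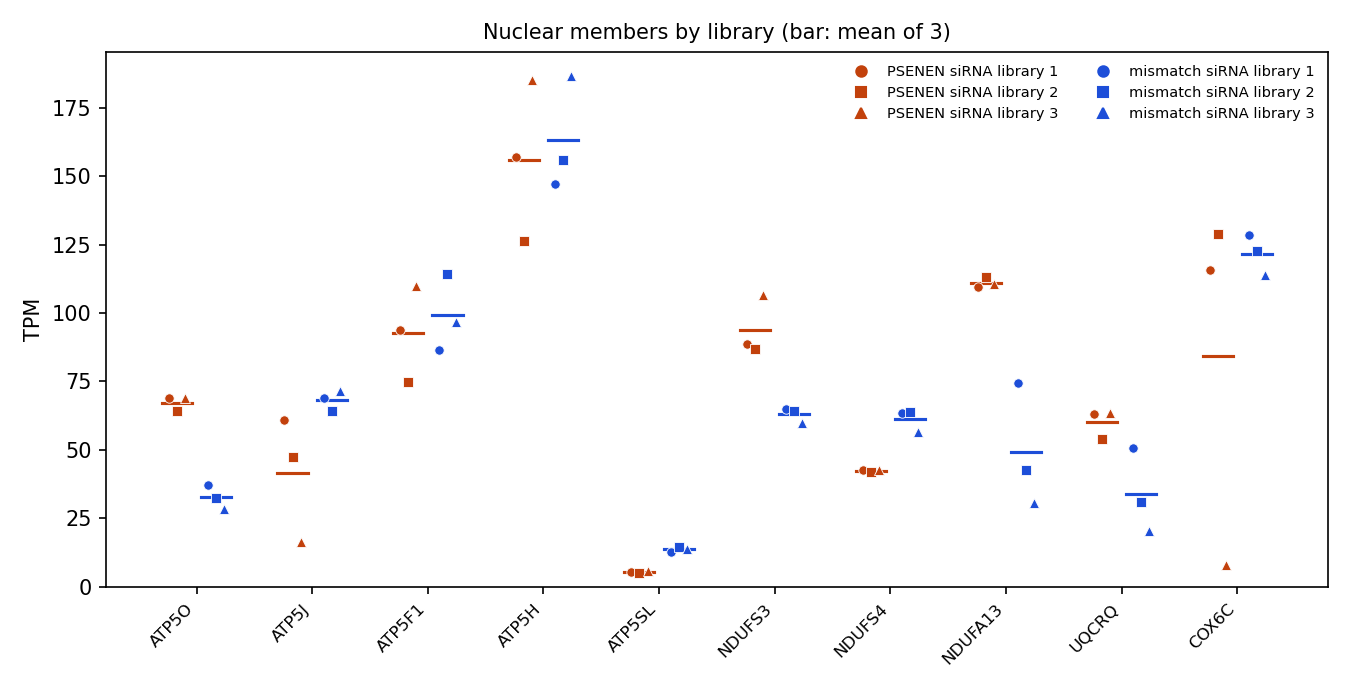
TPM (linear axis from 0) in each library for the peripheral stalk genes ATP5O, ATP5J, ATP5F1 and ATP5H, for ATP5SL, and for complex I, III and IV genes described in the text, orange for PSENEN siRNA and blue for mismatch siRNA, with bars for the mean of 3. ATP5O sits at 64.0 to 69.0 TPM above controls at 28.4 to 37.3 TPM, ATP5SL at 5.07 to 5.79 TPM below controls at 12.9 to 14.5 TPM, and COX6C has 1 low PSENEN siRNA library.

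Among the 14 assembly factors and related genes, 1 was called. ATP5SL (now DMAC2, ENSG00000105341, chr19:41431318-41440717), named for its likeness to ATP synthase factor B and known as a factor in the assembly of the complex I membrane arm, fell. It was at 5.59, 5.07 and 5.79 TPM with PSENEN siRNA and at 12.9, 14.5 and 13.99 TPM with mismatch siRNA. The groups were far apart, and the log2 difference was -1.19 (SE 0.13, limma adjusted p = 0.0272, 0.0235 to 0.0753 over 11 other settings). The difference was -1.23 to -1.14 when single libraries were left out, with no call (adjusted p 0.0752 to 0.121). With the replicate number as a term, a fit outside the 11 settings, ATP5SL was not called either. By exon coverage it was 1.98, 1.11 and 2.09 against 3.88, 4.56 and 3.71 in TPM units, a log2 difference of -0.91 that missed the threshold (limma adjusted p = 0.0753). Its level was spread over several transcripts, of which ENST00000592922 was at 4.31, 0.303 and 3.16 TPM against 6.20, 8.38 and 5.59 TPM. ENST00000417807 (0 against 1.13 to 1.75 TPM) and ENST00000595407 (0.376 to 1.27 against 1.46 to 2.60 TPM) were also lower without overlap. The groups overlapped for ENST00000221943 (0.0218 to 2.19 against 0.0308 to 1.73 TPM) and ENST00000589970.

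The 3′ UTR of ATP5SL holds the 7-base word TGGTTCT, which was found in 25 of the 46 genes called lower that have an annotated coding 3′ UTR (54.3%), in 2 of 14 called higher and in 17.9% of 11181 genes tested. The word was looked at because it is frequent among the genes called lower in these data, so its presence there is a description. In ATP5SL it lies at chr19:41431605-41431611, in 3 of 12 coding transcripts, and at the position printed below. ENST00000592922 and ENST00000221943 hold both, and ENST00000417807 and ENST00000595407 hold neither in a coding 3′ UTR. Whether the word had a part in the fall was not tested. The occurrence in more transcripts is shown with 10 bases on each side, the word in capitals, in GENCODE 29 coordinates:
chr19:41431838-41431844, minus strand, in 5 of 12 coding transcripts: tttacagggaTGGTTCTcccccgtgca
Of the 91 nuclear genes tested, 15 (16.5%) carry the word in a 3′ UTR, near the share of all genes. Of these 15, 7 were on the higher side, NDUFS3 and UQCRQ among them, 8 on the lower side, and ATP5SL was the only one called.

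The remaining assembly factors did not pass the test. COX7A2L, known as a factor of respiratory supercomplexes, was at 21.8, 36.8 and 34.5 TPM with PSENEN siRNA and at 18.97, 5.05 and 28.3 TPM with mismatch siRNA, with overlap and 1 low control. Its log2 difference was 1.04 (SE 0.57) and 0.52 by exon coverage. The 14 genes had a median difference of -0.038, and their mean levels ran from 1.78 TPM (SDHAF4) to 24.2 TPM (COX7A2L), below most subunits.

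Wide ranges within a group were fewer by exon coverage than by TPM. In 24 of the 91 genes tested (26.4%) the highest library was more than 2-fold above the lowest within a group by TPM, and in 12 (13.2%) by exon coverage. The widest such range among the mitochondrial genes was 1.56-fold, for MT-CO2. The 2 measures gave the same direction for 73 of 90 nuclear genes, and 15 of the 17 genes without overlap by TPM had none by exon coverage either, in the same direction. COX7A2L, NDUFA13, NDUFA7 and UQCRQ were the 4 genes whose log2 difference moved by more than 0.5 between the measures.

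**Figure D5:**
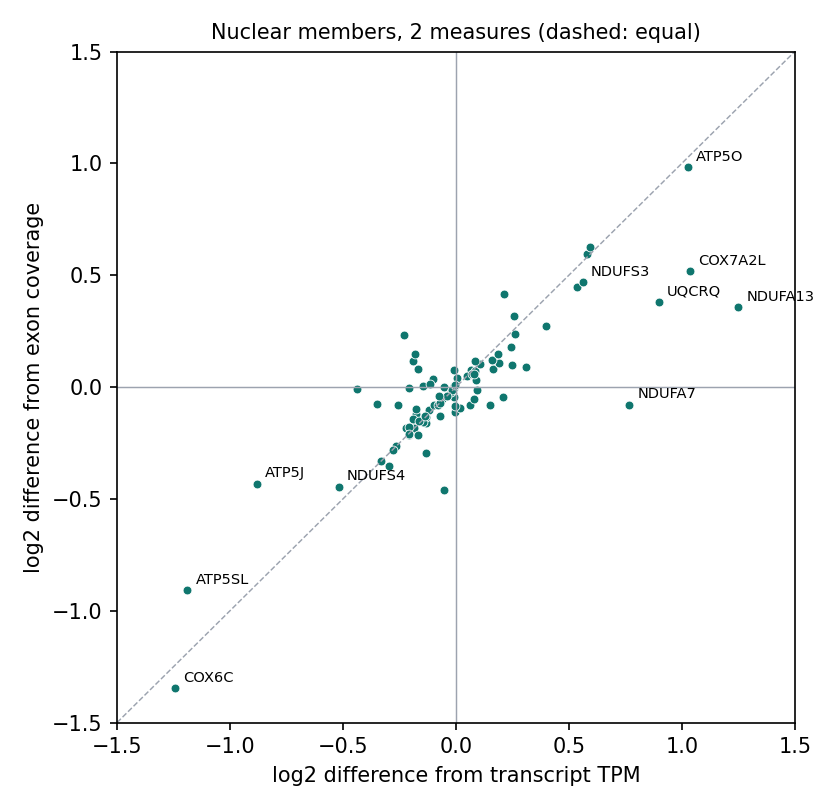
Log2 difference (PSENEN siRNA minus mismatch siRNA) of the 90 nuclear genes tested by both measures, from transcript TPM on the horizontal axis and from exon coverage on the vertical axis, with a dashed line where they are equal. ATP5O (1.03 and 0.98) lies near the line, ATP5SL (-1.19 and -0.91) above it on the negative side, and NDUFA13 (1.25 and 0.36) far below it.

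Lists of other genes of respiration held 138 tested genes outside the rule, and none was called by limma, while 16 had an unadjusted p under 0.05, which 14.6% of all genes had. Their median log2 difference was -0.034, and 32 (23.2%) had groups that did not overlap, against 22.3% of all genes. Other subunits included CYC1, cytochrome c1 of complex III, at 159, 159 and 185 TPM with PSENEN siRNA and 163, 151 and 144 TPM with mismatch siRNA. USMG5, a small subunit of the ATP synthase, was at 147, 160 and 187 TPM against 212, 196 and 219 TPM, without overlap, a difference of -0.35 (SE 0.12, limma adjusted p = 0.251). Further complex I assembly factors had 9 of 10 genes on the higher side (90%, against 43.4% of all genes) and a median of 0.21, with none called. Only 1 of these 10 (10%, against 22.3% of all genes) had groups that did not overlap. Of the 7 NDUFAF genes, complex I assembly factors inside the rule, NDUFAF1, NDUFAF3, NDUFAF4, NDUFAF5 and NDUFAF7 were on the lower side. Their log2 differences were -0.25, -0.13, -0.0086, -0.19 and -0.053, with none called. By exon coverage NDUFAF4 (0.0061) and NDUFAF5 (0.12) turned to the higher side and NDUFAF6 (-0.0125) to the lower side. The 23 complex IV assembly factors had 16 on the lower side and a median of -0.11, with 30.4% on the higher side, against 43.4% of all genes. The most abundant genes of these lists outside the rule were COA1 at 32.9 to 45.1 TPM against 25.4 to 42.3 TPM and COA4 at 57.4 to 73.3 TPM against 44.7 to 72.0 TPM.

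The machinery of the mitochondrial genome was mixed, with 13 of 24 genes on the higher side and none called. TFAM, which packages mitochondrial DNA and starts its transcription, was at 12.4, 11.2 and 15.5 TPM with PSENEN siRNA and at 26.7, 19.9 and 17.6 TPM with mismatch siRNA. LRPPRC, which stabilizes mitochondrial messenger RNA, was at 72.2, 75.6 and 77.5 TPM against 63.0, 55.2 and 58.7 TPM. Both had groups that did not overlap, in opposite directions, with log2 differences of -0.66 (limma adjusted p = 0.207) and 0.35 (adjusted p = 0.186). SLIRP, its partner and the most abundant of the list, was at 83.7 to 106 TPM against 91.8 to 133 TPM. TFAM, LRPPRC and CYC1 were singled out after their values were seen.

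Around the complexes, DLAT, a subunit of pyruvate dehydrogenase, had the lowest adjusted p of the lists: 20.1, 16.8 and 20.4 TPM with PSENEN siRNA against 36.2, 33.6 and 30.7 TPM, a log2 difference of -0.78 (SE 0.13, limma adjusted p = 0.0605). The import channel gene TIMM23 followed with -0.66 (adjusted p = 0.0859) and the ADP/ATP carrier gene SLC25A6 with 0.68 (adjusted p = 0.129). These 3 were also named after their values were seen. By the rule for naming, the most abundant genes of the remaining lists were SLC25A5 at 489 to 531 TPM against 531 to 534 TPM, HSPA9 at 203 to 225 TPM against 152 to 265 TPM, CS at 122 to 225 TPM against 109 to 237 TPM and MYC at 52.2 to 68.2 TPM against 54.4 to 70 TPM. COQ9, of coenzyme Q synthesis, was at 48.5 to 55.6 TPM against 44.0 to 54.7 TPM, UQCC1 at 28.0 to 33.5 TPM against 26.0 to 30.7 TPM and ATPAF1 at 20.6 to 24.5 TPM against 10.0 to 20.4 TPM. ATPAF1, an assembly factor of the ATP synthase head, was the only one of these 7 without overlap, and its log2 difference of 0.60 did not pass the test (limma adjusted p = 0.325).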

How the data were processed

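The authors deposited 1 assembled-transcript file per library, with coverage, FPKM and TPM for each transcript per the file headers. The submitters' processing notes name Bowtie 0.12.2 and builds of the mouse genome, mm8 and mm9, although the files hold human transcripts. Aligner, assembler and strandedness: not given in the sources used here. Of 92476 reference transcript names in the files, 92263 are in GENCODE 29, and 98.1% of all the names have the same position there, so that annotation of GRCh38 was used. A gene's value is the sum of TPM over reference transcripts, plus any assembled transcript with one of its introns. This assigned 71.84% to 72.85% of the TPM in the PSENEN siRNA libraries and 73.45% to 74.92% in the mismatch siRNA libraries. The groups did not overlap in this share, and its part in the log2 differences was not tested.

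PSENEN siRNA and mismatch siRNA libraries were compared with limma 3.58.1 (R 4.3.3, trend on mean expression) on log2(TPM + 1) for genes reaching 1 TPM in 3 or more of the 6 libraries, with Benjamini-Hochberg adjustment over all of them. A fold change on this scale understates the change of low genes. TPM values carry no counts, so no counting interval is given, and depth was estimated from coverage times transcript length. Exon coverage was divided by the summed length of a gene's annotated exons and scaled to TPM units with bedtools 2.31.1 overlaps. By it the nuclear members summed to less than by transcript TPM (mean 3127 against 6501 with PSENEN siRNA). The mitochondrial members did not (30250 against 29746). Text and figures used Python 3.11.15.

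The members and the gene lists were chosen with earlier results of these data known. Genes named are, by rule, all mitochondrial members, called members, the most abundant and the most extreme subunit of each complex (of those with at least 5 TPM), the most extreme assembly factors, isoform pairs, the called or else most abundant gene of each list, and PSENEN. Any other gene was named after its values were seen. Sequences are from RefSeq and GENCODE. Alternatives tried were other pseudocounts, filters, scalings and units, reference transcripts alone, no trend, a replicate term and each library left out. Some items are not reported here.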

Additional observations from a re-analysis of the deposited data

How the results depend on the processing

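The 3 libraries a group limit these results: every call among the members was lost when any 1 library was left out. Depth differed between the libraries, and its part in the results was not tested. The group difference in the log2 ratio of summed mitochondrial to nuclear TPM was 0.16 to 0.29 with 1 library left out. From its value with all libraries it shifted by less than the spread within groups. It does not depend on pseudocount, filter, trend or block. The 244 genes called by exon coverage (66 higher, 178 lower; 1 member, ATP5O) compare with 84 by TPM. Without the trend 1 member was called, ATP5SL, and with a minimum of 5 TPM 90 genes were called lower. The numbers do not pair the libraries (correlations of same-numbered deviations -0.053 to 0.005), and with the replicate block 6 genes (3 higher, 3 lower) and 0 members were called. Leaving out 1 library gave 9 to 12 genes called (1 to 8 higher, 2 to 11 lower) and 0 members. Medians then ranged from -0.086 to 0.024 for nuclear members, -0.081 to 0.021 for nuclear subunits, 0.06 to 0.32 for mitochondrial members, 0.028 to 0.28 for mitochondrial and -0.19 to -0.0020 for nuclear subunits of complex IV, and -0.10 to 0.098 for complex II. The cause was not tested for any of these.

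Under FPKM the median was 0.035 for nuclear members, 0.043 for nuclear subunits and 0.066 for those of complex I, and the log2 difference changed sign for UQCRH (0.055), COX7A2 (0.069), COX7B (0.018), COX8A (0.034), ATP5G2 (0.061), ATP5G3 (0.0020) and MYC (0.0035). With median-of-ratios scaling both nuclear medians were 0.016, and UQCRH (0.037), COX7A2 (0.051), COX7B (0.0011), COX8A (0.016) and ATP5G2 (0.043) changed sign. With quantile normalization the same 3 medians were 0.017, 0.011 and 0.067, and UQCRH (0.0062), COX7A2 (0.057), COX7B (0.018), ATP5G2 (0.055) and MYC (0.0076) changed sign. Reference transcripts alone turned NDUFB9 (0.74), COX7A2 (0.12), ATP5G1 (-0.0294) and ATP5G3 (0.0007), exon coverage turned COX7A2 (0.0079), ATP5G1 (-0.095) and ATP5G2 (0.077), and rescaling without mitochondrial transcripts turned COX7A2 (0.0046). With 1 library left out, the log2 difference ran from -0.044 to 0.28 for MT-CO2, -0.44 to 0.24 for NDUFB9, -0.024 to 0.26 for SDHD, -1.91 to 0.0072 for COX6C, -0.065 to 0.091 for COX7A2, -0.37 to 0.30 for COX7B, -0.094 to 0.032 for COX8A and -0.42 to 0.15 for NDUFA4. It ran from -0.23 to 0.33 for ATP5G1, -0.18 to 0.25 for ATP5G2, -0.36 to 0.13 for ATP5G3, -0.12 to 0.22 for COA4, -0.19 to 0.035 for MYC, -0.18 to 0.47 for CS and -0.16 to 0.24 for HSPA9. None of these genes was called where its sign changed.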
